A study of Mus musculus with 2 samples.

Results

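The annotated retained-intron transcripts of mouse heart were taken as the models that GENCODE M21 types as retained_intron, that the deposited counts call Known, and that held at least 2 long reads over both libraries. The rule gave 673 members in 613 host genes, of 15048 annotated models with as many reads. The members were thus chosen by their read counts, which are given as a description. Just inside the threshold lay 232 members with exactly 2 reads, and just outside it 904 models with 1 read. The RNA came from the heart of female B6CASTF1/J mice aged 2 months, F1 hybrids of the strains C57BL and CAST, and was sequenced as long reads. The labels gave 1 untreated group with 2 biological replicates, each made from 2 µg of total RNA. By the sample labels these were animals 3 and 4, but the text on the libraries names animal 3 each time and the donor identifier is the same. Whether the spread between the replicates is that of 2 animals was therefore not settled.

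A retained intron is a stretch that the other transcripts of the gene splice out and that stays in the RNA. Introns that stay between coding exons usually bring a stop codon into the reading frame, and such RNAs are known to be kept in the nucleus or removed by nonsense-mediated decay. Genes of splicing factors, among them SR proteins and the CLK kinases that phosphorylate them, are known to hold conserved introns of this kind. The annotation uses the type more widely: it is also given to short non-coding models that begin or end within an intron, or that lie in 1 exon.

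Replicate 1 held 652698 reads on annotated models and replicate 2 held 535492, out of 905154 and 745375 reads on all models. A model without reads in a library could still have had up to 3 reads there at this depth. The cardiomyocyte marker Myh6 had 26157 and 24642 reads over all its models, all 5 cardiomyocyte markers had reads in both libraries, and of the 3 skeletal muscle markers Myh4 and Tnnt3 were at 0 and Acta1 had 380 and 316 reads. The red cell markers Hba-a1 and Hbb-bs together had 21939 and 16755 reads. Reads carried no molecular identifiers and are not independent molecules, so intervals, limits and p-values speak of counting error alone. Tests between the libraries compare 2 libraries, not 2 conditions.

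The members fell into 4 structures, apart from 2 members that held no intron of another model. The most frequent, with 315 members, held only part of an intron at 1 end. Of these, 246 began inside an intron, and 69 ended in one without beginning in one. Another 153 spanned a whole intron within their first or last exon, 124 were a single exon (55 of them over a whole intron), and 79 spanned a whole intron in an inner exon, between 2 splice junctions of their own. In all 287 members spanned a whole intron. For the members that begin in an intron, the sequence that sets them apart from the coding model is the intron end kept in front of their first junction. It is shown for 6 of those with most reads, read from the GENCODE M21 transcripts (build mm10), with intron bases in lower case and the first 10 bases of the following coding-model exon in capitals.
Cox4i1-204, chr8:120672705-120672734, plus strand: gcctctccaatgtgttgtagGGAGTGTTGT
Fxyd1-213, chr7:31052168-31052193, minus strand: atctgttcctttttagAACTGGGGAA
Rpl5-204, chr5:107904697-107904726, plus strand: acataaaattttcatcttagTACCAAACGA
Fh1-203, chr1:175606173-175606202, minus strand: ctacactggttttctcaaagGAAAGGTGAA
Sparc-205, chr11:55402062-55402091, minus strand: gccctgtgcttggctcacagGTATGCAGCA
Ift81-203, chr5:122560736-122560765, minus strand: atctgcccttttcaaactagGAACTAACCC
Each of the 6 runs ends its lower-case part in ag, the end of an intron, and continues with the exon. Over the 233 members that begin inside an intron next to an exon of another model, the intron part had a median length of 174 bases, with 16 bases in Fxyd1-213 as the lowest and 2067 bases as the highest.

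The members with a whole intron between junctions are the ones in which a read can show retention by itself. The introns below are those of at most 300 bases between coding exons in the 8 members with most reads that have one, which were picked for display after their values were seen. They are given from the first to the last intron base, with the first in-frame stop codon in capitals where there was one. The frame is that of the annotated coding model that splices the intron out.
Mdp1-202, chr14:55660099-55660167, minus strand: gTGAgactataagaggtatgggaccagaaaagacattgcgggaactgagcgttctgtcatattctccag
Tesc-203, chr5:118056439-118056536, plus strand: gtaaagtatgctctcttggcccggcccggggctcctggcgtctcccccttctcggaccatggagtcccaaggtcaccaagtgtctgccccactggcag
Ppdpf-206, chr2:181187737-181187808, plus strand: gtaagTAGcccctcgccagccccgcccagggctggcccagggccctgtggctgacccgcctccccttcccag
Fdx1l-203, chr9:21073182-21073263, minus strand: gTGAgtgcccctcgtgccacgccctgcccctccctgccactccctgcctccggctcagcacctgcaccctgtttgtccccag
Chkb-208, chr15:89428545-89428713, minus strand: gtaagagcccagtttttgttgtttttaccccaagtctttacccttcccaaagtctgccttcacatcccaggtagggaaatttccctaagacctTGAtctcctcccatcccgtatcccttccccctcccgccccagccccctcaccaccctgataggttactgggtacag
Mrps24-203, chr11:5707410-5707486, minus strand: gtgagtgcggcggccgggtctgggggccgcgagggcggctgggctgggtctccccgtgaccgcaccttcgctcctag
Mrps26-201, chr2:130564228-130564307, plus strand: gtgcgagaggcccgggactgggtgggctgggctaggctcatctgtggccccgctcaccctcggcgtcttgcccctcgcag
Stub1-206, chr17:25831366-25831543, minus strand: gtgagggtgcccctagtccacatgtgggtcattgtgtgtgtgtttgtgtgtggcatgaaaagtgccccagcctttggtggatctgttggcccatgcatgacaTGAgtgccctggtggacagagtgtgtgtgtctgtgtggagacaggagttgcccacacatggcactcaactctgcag
Mdp1-202 and Fdx1l-203 met a stop as soon as the frame entered the intron, in the donor itself, with the stop ending at intron base 4. Tesc-203, Mrps24-203 and Mrps26-201 had no in-frame stop within the intron. The 79 members held 89 such introns (87 distinct ones, since 2 pairs of members share an intron), of which 87 ran from GT to AG, 1 from GC to AG and 1 had other ends. Of the 83 introns that lay between coding exons, 73 held an in-frame stop, at a median of 36 bases into the intron, and in 19 of these the stop ended at base 4. The other 10 held none, and 2 of those 10 had a length that is a multiple of 3. The 89 introns had a median length of 242 bases (69 to 3220), against 544 bases for the 616 other introns of the coding models that splice them out. A length of 300 bases or less was found in 58.4% of them and in 36.2% of the other introns. That 88 of the 89 were inner introns follows largely from the definition of the structure.

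Reads were spread very unevenly over the members. They held 10358 reads in replicate 1 and 7095 in replicate 2. Cox4i1-204 (chr8:120672590-120674113, plus strand, 3 exons, 578 bases), a model of the gene for subunit 4 of cytochrome c oxidase, held 5218 and 3232 of these reads, which is 48.4% of all reads on members. Fxyd1-213 (chr7:31051682-31052193, minus strand, 3 exons, 255 bases), of the gene for phospholemman, the regulator of the sodium-potassium pump in heart, held 1300 and 799, and both together held 60.4%. The 10 members with most reads held 72.5%, while the median member had 3 reads against 13 for the other annotated models. Of the members, 126 had at least 10 reads and 12 had at least 100. The structure with most members also held most of the reads: members with part of an intron had 8776 reads in replicate 1 and 5794 in replicate 2, 83.5% of the reads on members. Members with a whole intron between junctions were 11.7% of the members and held 241 and 215 reads, 2.61% of the reads. Single-exon members held 698 and 549 reads, and members with a whole intron in an end exon 638 and 532.

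**Figure D1:**
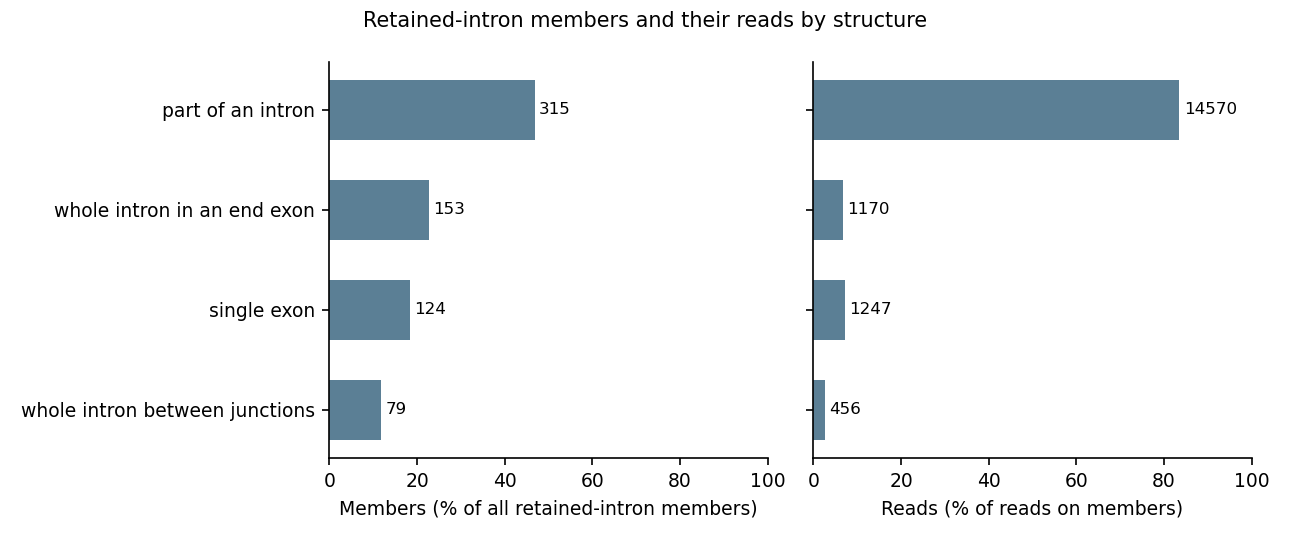
Retained-intron members by structure. Left, the share of the 673 members in each structure, with the number of members beside each bar; right, the share of the 17453 reads on members over both libraries, with the number of reads. Members with part of an intron made up 46.8% of members and 83.5% of reads, and members with a whole intron between junctions 11.7% and 2.61%.

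Members were short. Their median exon number was 3 and their median length 1059 bases, against 8 exons and 2479 bases for the 14375 other annotated models with at least 2 reads. A single exon was found in 18.4% of members and 5.63% of the other models, and 10 or more exons in 7.28% and 39.1%. Annotated nonsense-mediated decay models had a median of 7 exons and 1696 bases, and processed_transcript models one of 3 exons and 824 bases. Of the 619 members whose gene had a coding model with reads, 183 were longer than the leading coding model and 1 had more exons. Eprs-204, of the gene for the glutamyl-prolyl-tRNA synthetase, was among the longest by exons, with 20 exons and 5 reads in each library.

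By position, most members ended close to the 3′ end of their genes. Their start lay at a median of 30.8% of the gene's span and their end at 95.5%, and 407 members ended within the last 10% of the gene's span. The end lay within 50 bases of the end of another model of the gene in 335 members (49.8%), against 21.1% of the 15770 retained-intron models with no more than 1 read in genes that had reads. The start lay within 50 bases of another start in 277 members (41.2%). Both ends were shared by 127 members, and neither by 188, which held 56.8% of the reads. Cox4i1-204 belongs to this last group and held 8450 of the group's 9907 reads. The start of this model lay 562 bases from the nearest other start and its end 68 bases from the nearest other end.

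What the read counts of many members measure is limited by how reads were matched to models. None of the 46285 unannotated spliced models of replicate 1 and none of the 43765 of replicate 2 had the whole intron chain of an annotated model, so spliced reads with an annotated chain were counted on that model wherever they began or ended. In 462 members (68.6%), which held 15715 of the 17453 reads on members, the chain was an unbroken run within the chain of another model of the gene. That was so for 29.2% of processed_transcript models, 9.48% of protein-coding models and 2.59% of nonsense-mediated decay models with at least 2 reads. In 358 members with 15197 reads the run lay at the 3′ end of the other chain. For these members a read that reaches into the intron and an incomplete read of the coding model that stops short of it cannot be told apart by their counts. A chain of their own was found in 87 members with 491 reads, 259 in replicate 1 and 232 in replicate 2.

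Incomplete chains of a coding model were lined up by the number of introns they keep from the 3′ end. The reads of several leading members then stood out from their neighbours. The leading members were chosen by their reads, so a high count beside other chains follows in part from that choice. Cox4i1-201, the coding model, splices 4 introns, and its full chain had 2411 and 1845 reads. The chain of the last 2 introns is that of Cox4i1-204, with 5218 and 3232 reads. The chain with 1 intron more had 72 and 44 reads, and the chain with 1 intron fewer 25 and 16. Reads on Cox4i1 were thus concentrated on the full chain and on the member's chain, with few in between.

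In Fxyd1 the member's chain of 2 introns had 1300 and 799 reads, against 229 and 179 for the full chain of 7 introns of Fxyd1-203. The chains of 3, 4 and 5 introns had 1, 4 and 2 reads over both libraries. Rpl5-204 (chr5:107904114-107908050, plus strand), of a gene for a protein of the large ribosomal subunit, had 394 and 315 reads on 2 introns. The full chain of 7 introns had 22 and 17 reads there, and the chain with 3 introns 1 read in all. Fh1-203 (chr1:175601378-175606647, minus strand), of the gene for the citric acid cycle enzyme fumarase, had 174 and 121 reads on 2 introns, fewer than the 754 and 626 of the full chain of 9. No read was found on its chain of 3 introns. In Ift81, a gene of transport within cilia, 84 reads kept 4 introns, 27 kept all 18, and 1 kept a number between 5 and 17. Sparc-205, of a gene for a matrix-binding protein secreted by fibroblasts and endothelial cells, was of another kind. There 74 and 35 reads kept its 4 introns, 19 and 17 kept 5, and 25 and 16 kept 6. For Tnni3-204, 37 and 33 reads kept its 1 intron, 15 and 14 kept 2, and 52 and 30 kept 3.

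**Figure D2:**
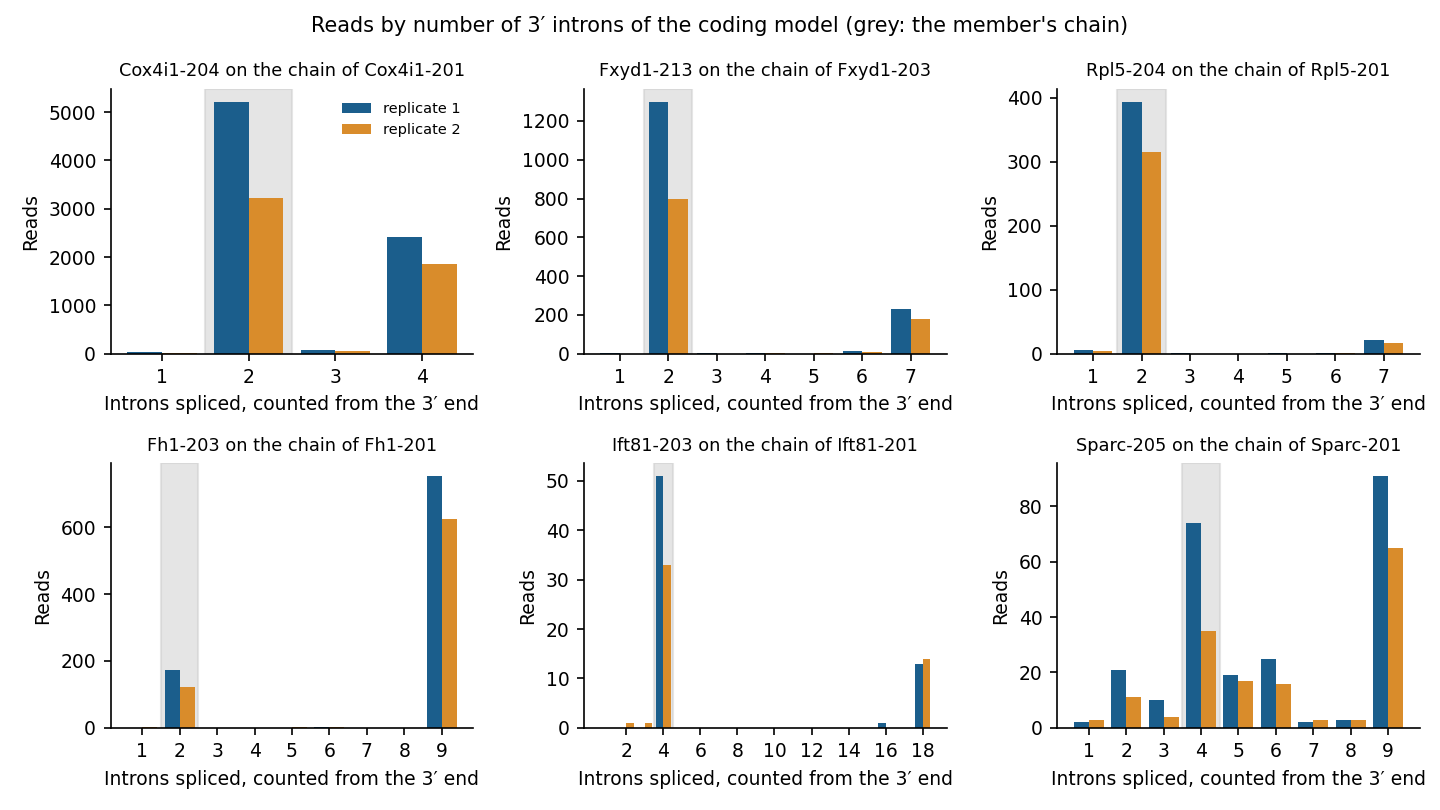
Reads by the number of introns kept from the 3′ end of the coding model, for 6 members that begin inside an intron. Each panel is 1 gene, the horizontal axis counts spliced introns up to the full coding chain, the vertical axis gives reads, and grey marks the member's chain; in Cox4i1 it held 5218 and 3232 reads, against 72 and 44 for the chain with 1 intron more.

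There were 44 members with part of an intron, at least 10 reads and a longer incomplete chain beside them. More reads than on the chain with 1 intron more were found in 31 of the 44. Among the others, Atp5j-208 had 31 reads against 2006 on that longer chain, and Cox4i1-203 had 41 against 8450. A separate count took the 31 members with part of an intron, at least 10 reads and a chain with 1 intron fewer. Of these, 27 had more reads than that shorter chain. This is in part set by the read minimum, which the member had to pass and its neighbour did not. With all structures included, 72.5% of 51 retained-intron models had more reads than the chain with 1 intron more, as did all 35 protein-coding models that end in the same way at the 3′ end of a longer coding chain. Incomplete chains with few reads were present in the files: of 15826 incomplete models that keep the 3′ end in replicate 1 and 14931 in replicate 2, 66.8% and 67.8% had 1 read. The share of reads of annotated genes on such models was 7.58% in replicate 1 and 7.64% in replicate 2.

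Reads on other models of the host genes gave a count of crossed splice sites that does not use the member's own count. At the splice site inside the member that most reads use, a crossing was counted when an unannotated spliced model ran at least 10 bases past it on both sides. Such a crossing need not hold a whole intron, since a nearby start or splice site gives one too. Taking the site with most spliced reads lowers the shares. At the site inside Cox4i1-204, 4505 reads on other models were spliced and 15 crossed it, with 31 more on single-exon models. Inside Fxyd1-213, 807 were spliced and 395 crossed, and inside Rpl5-204, 44 were spliced and none crossed. Over the members with part of an intron, 787 reads crossed and 211524 were spliced (0.371%), and 395 of the 787 were those of Fxyd1. The value was 0.470% for members with a whole intron in an end exon, 0.407% for single-exon members and 1.85% for members with a whole intron between junctions (298 crossed, 15783 spliced). Of members with at least 20 such reads, 70.3% of those with an intron between junctions had a crossing read, against 38.3% of those with part of an intron. For members with a chain contained in another, reads that reach into the intron with that chain are on the member itself and are not in these counts.

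For the introns between junctions, the reads that held the whole intron could be set against those that spliced it out. Holding reads lay on the member, on any other annotated model or on an unannotated spliced model. Only reads with exactly the junction of that intron counted as splicing it out. Reads that remove the sequence by other junctions are not in these shares. At least 20 such reads were found for 72 introns, of which 70 are distinct. An intron shared by 2 members was counted once for each. A median of 8.48% of reads held the intron, with quartiles of 3.58% and 15.5%. The share was at least 10% in 32 of the 72, and at least 25% in 14. The members' own reads chose these introns, so the levels are a description. No read spliced out 5 of the 89 introns, in Rsrp1-204 (2 of its introns), Srebf2-205, Ip6k1-203 and Apbb3-204, the last 3 named after their values were seen. The 2 Rsrp1 introns are introns of Rsrp1-202. They also lie within exons of the coding model Rsrp1-201, whose 68 and 63 reads held them. Both are among the 72, at 100%.

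Levels of holding ranged widely, within genes that act in splicing and outside them. Rsrp1-204 (chr4:134923592-134927671, plus strand), of a gene for an arginine- and serine-rich protein, spanned an intron of 1302 bases that its coding model Rsrp1-201 splices out. That intron was held by 43.0% (34.5 to 51.9, Wilson 95%) of the replicate 1 reads and by 50.8% (42.3 to 59.1) of the replicate 2 reads. In Ccnl2-205, of the gene for cyclin L2, which associates with splicing factors, an intron of 1664 bases was held in 93.3% (70.2 to 98.8) and 88.9% (71.9 to 96.1) of reads. Luc7l-204, of the gene for a factor that binds the U1 particle, held an intron of 986 bases in 87.5% (52.9 to 97.8) and 77.8% (45.3 to 93.7). These shares rest on few reads: 38 reads held the Ccnl2 intron and 4 spliced it out, and in Luc7l the numbers were 14 and 3. They also hold for 1 junction alone, that of Ccnl2-202 and that of Luc7l-206. At the most used splice site inside each member, 36 reads on other models were spliced in Ccnl2 and 12 in Luc7l. The high shares are therefore not shares of all reads of the gene over this sequence. Clk1-212, of the gene for a kinase of SR proteins, held 2 introns, of 387 and 871 bases, with 8 reads holding each of them, against 7 and 6 reads that spliced them out. The next cases were chosen after their values were seen. Srsf5-212, of the gene for an SR protein, had 4 reads itself, but its intron of 1229 bases was held in 31 reads and spliced out in 61. The intron of 102 bases in Akap8l-206 was held in 49 reads and spliced out in 17, but 23 and 19 of the holding reads lay on other annotated models and 1 in each library on the member. A second intron of that member, of 1443 bases, was held in 5 reads and spliced out in 64. Other members in the lists of splicing genes held their introns less often over both libraries, with 3.70% in Arglu1-204, 8.11% in Srpk1-212, 8.86% and 6.41% for the 2 introns of Rbm5-219 and 12.5% in Srrm1-207. Outside these lists, 57.9% of reads held the intron of Rrnad1-202 (11 held, 8 spliced out) and 43.75% that of Miip-205 (7 held, 9 spliced out).

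Short introns with their sequence given above were held less often in some genes and at middle levels in others. The Mdp1 intron of 69 bases was held in 16.7% (9.80 to 26.9) and 12.1% (5.97 to 22.9) of reads. The Tesc intron of 98 bases, in the gene for the calcium-binding protein tescalcin, was held in 8.26% (4.40 to 14.95) and 7.14% (3.50 to 14.02). The Ppdpf intron of 72 bases was held in 47.9% (34.5 to 61.7) and 37.5% (22.9 to 54.7), and there 22 of the 35 holding reads lay on another annotated model of the gene. The values of both libraries lay within each other's intervals for all of these. Fdx1l-203, of the gene for a mitochondrial ferredoxin, gave 28.9% (17.0 to 44.8) and 30.0% (14.5 to 51.9) for an intron of 82 bases. Chkb-208, of the gene for choline kinase beta, gave 36.2% (24.0 to 50.5) and 28.6% (15.3 to 47.1), but its sequence is nearly identical to that of Gm44502, so the assignment of its reads is uncertain. The mitochondrial ribosomal members Mrps24-203 and Mrps26-201 gave 3.33% and 4.42%, and 5.45% and 12.3%. Stub1-206, of the gene for the chaperone-associated ubiquitin ligase CHIP, gave 5.32% and 3.88%, and it overlaps exons of Jmjd8 on the other strand.

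**Figure D3:**
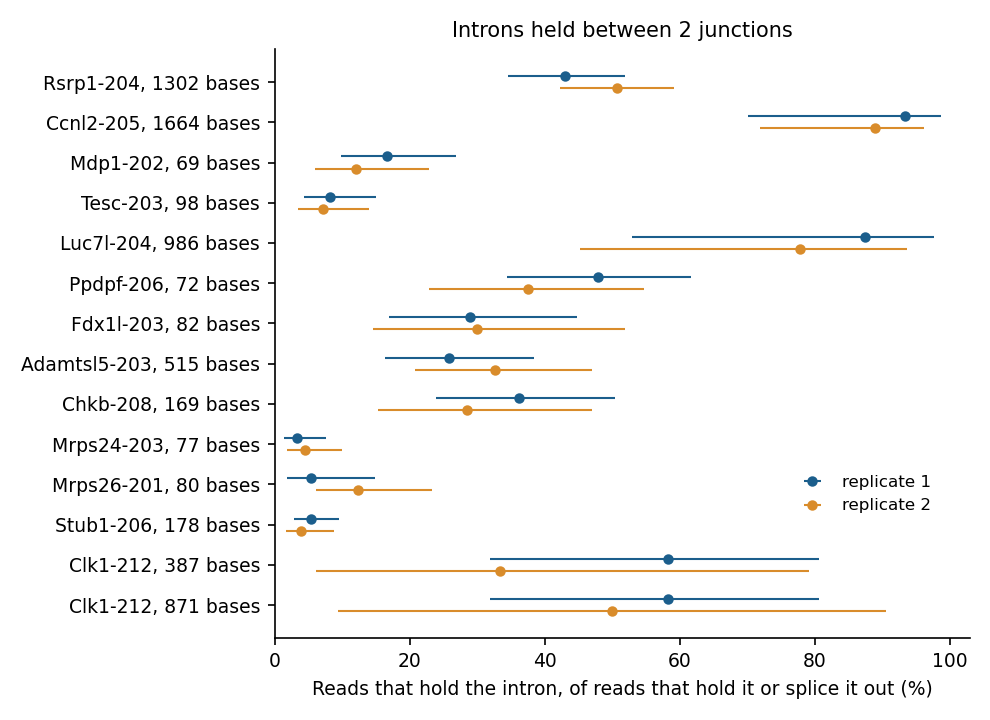
Share of reads that held the intron, of reads that held it or spliced it out by exactly its junction, for introns between junctions in the members with most reads. Introns that no read spliced out, among them 2 of Rsrp1-204, are left out. Points are libraries, bars are Wilson 95% intervals, and the length of each intron is given in bases; Ccnl2-205 and Luc7l-204 lay above 75% in both libraries, and Mrps24-203 and Stub1-206 below 6%.

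Shares of the host gene were taken over the annotated reads of the gene. Among the 518 members whose gene had at least 20 annotated reads, the median share was 3.88%, with quartiles of 1.32% and 8.82%. It was at least 10% in 117 members, at least 25% in 38 and at least 50% in 16, and below 1% in 105. A member was the leading annotated model of its gene in 21 of these. The median was 5.62% for members with an intron between junctions, 5.08% for single-exon members, 3.85% for members with a whole intron in an end exon and 2.67% for members with part of an intron. Since a member needs 2 reads, its share has a floor that falls as the gene's reads rise: the median was 9.52% in genes with 20 to fewer than 50 annotated reads, and 0.420% in genes with 500 or more.

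The 12 members with the highest share, in genes where each library had 20 annotated reads or more, were of several structures. Clasp1-207, a single exon in the gene for a microtubule-end protein, held all 26 and 24 annotated reads of its gene, although these were 17.6% of the gene's reads when unannotated models are counted. Klhl33-203, also a single exon, held 41 of 42 annotated reads in replicate 1 and 32 of 32 in replicate 2. Rpl5-204 held 93.4% in replicate 1 and 93.8% in replicate 2, and Fxyd1-213 held 77.7% and 73.0%. Ift81-203 held 79.7% and 70.2%, and Tnni3-204, of the gene for cardiac troponin I, 71.2% and 70.2%.

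The annotated reads of Tnni3 were 52 and 47, out of 477 and 359 on all its models, so that Tnni3-204 was 8.37% of all reads of the gene. Cox4i1-204 held 68.0% and 63.1% of the annotated reads of its gene, and Rex1bd-207 54.2% and 65.2%. Ccnl2-205 held 12 of 26 annotated reads in replicate 1 and 17 of 26 in replicate 2, and 22.1% of all reads of the gene. Stau1-209, of a gene for a protein that binds double-stranded RNA, held 52.5% and 51.7%. Trdn-204 (chr10:33198705-33200369, plus strand), a single exon in the gene for triadin, which anchors calsequestrin at the ryanodine receptor, held 132 of 261 annotated reads and 101 of 235, and 26.1% of all reads of the gene. Slc4a2-215 held 15 of 27 and 8 of 23 annotated reads, 29.1% of all reads of the gene, and overlaps exons of Fastk on the other strand. It was not given in the sources used here whether the counting used strand, so reads of both genes cannot be told apart.

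**Figure D4:**
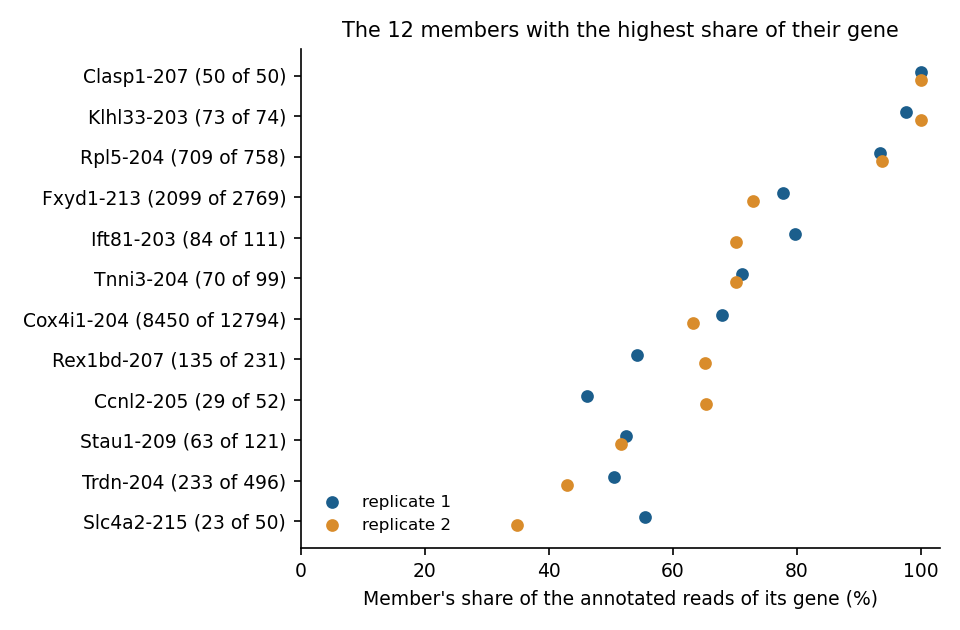
Share of the annotated reads of the gene held by the member, for the 12 members with the highest share in genes where each library had 20 annotated reads or more. Points are the 2 libraries, and the reads of the member and of its gene over both libraries stand beside each name; Rpl5-204 held 93.4% and 93.8%.

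The remaining members with most reads were of genes with other roles. Hba-a1-202 and Hbb-bs-202, of alpha and beta globin, had 131 and 104 reads and 118 and 92 reads, which was 0.902% and 1.75% of the annotated reads of their genes. Hba-a1 and Hba-a2, and Hbb-bs and Hbb-bt, are nearly identical copies, so that the split of reads between them is uncertain. Ss18l2-207, a single exon, had 94 and 84 reads, 44.8% of the annotated reads of its gene. Sar1a-205, with a whole intron in an end exon, had 49 and 61 reads in the gene for a GTPase of vesicle coats. Ank-202, of the gene for a pyrophosphate transporter, had 46 and 34 reads, and Psmb6-202, of a gene for a proteasome subunit, had 46 and 32. Near-identical copies were found for 14 members, and exons of another gene with reads overlapped 7 members on the same strand and 34 on the other. A single member was found in 559 hosts, 2 members in 48 and 3 members in 6, which were Chkb, Fdx1l, Micall1, Ppdpf, Sdr39u1 and Vegfa. In Ppdpf the 3 members together had 31 reads in replicate 1 and 14 in replicate 2, out of 87 annotated reads over both libraries, and in the growth factor gene Vegfa they had 4 and 14 out of 437. These genes were named after their values were seen.

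Host genes were described with 25 lists of gene functions, which took in 188 of the 613 hosts. Among the 5589 genes with at least 20 annotated reads, 8.37% hosted a member. The share was 26.4% (29 of 110) for nuclear genes of the respiratory chain and ATP synthase, 27.1% (23 of 85) for cytosolic ribosomal proteins and 25% (13 of 52) for enzymes of fatty acid oxidation and the citric acid cycle. Among lists with fewer genes it was 41.2% (7 of 17) for other splicing regulators, 31.6% (6 of 19) for SR proteins and related factors and 27.3% (3 of 11) for circadian genes. The other lists were lower, with zinc finger genes lowest of those with a host, at 2.17% (1 of 46). Hosting a member takes reads on the gene, and the lists were not matched for reads, so these shares are a description. Apart from Cox4i1-204, Rpl5-204 and Fh1-203, the leading members in the respiratory chain, ribosomal and enzyme lists were small parts of their gene. The median share was 0.547% in the respiratory chain list, 2.04% in the ribosomal list and 0.284% in the enzyme list. Cyc1-204 (cytochrome c1) had 24 and 23 of the 1528 and 1264 annotated reads of its gene. Ndufa7-204, of a complex I subunit, had 28 and 16 of 573 and 379. Rpl26-204 had 12 and 6 reads, Idh2-206 (mitochondrial isocitrate dehydrogenase) 8 and 7, and Lpl-205 (lipoprotein lipase) 5 and 9.

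Genes of contraction and calcium handling were also among the hosts. Here and below, hosts by list are counted among genes with at least 20 annotated reads, while members by list are counted without that minimum. The sarcomere list had 5 hosts among 42 genes, with Tnni3-204, Tnni3-202 (15 and 14 reads) and Cryab-204 (8 and 10 reads, of the small heat shock protein alpha-B crystallin) leading. The list of calcium handling and ion channels had 6 hosts among 36 genes, with Fxyd1-213, Trdn-204 and Calr-204 (2 and 4 reads) leading. Mitochondrial ribosomal proteins had 12 hosts among 78 genes, and the ubiquitin and proteasome list 10 among 142, led by Psmb6-202 and Fbxo40-203 (27 and 23 reads). Chaperones had 4 hosts among 51 genes, led by Dnajb5-206 with 15 and 5 reads. The circadian list had 3 hosts among 11 genes, with Tef-207 at 6 and 2 reads. Translation factors had 5 hosts among 49 genes, tRNA synthetases 2 among 34, glycolysis and glycogen genes 5 among 28, and zinc finger genes 1 among 46. With no minimum on the reads of the gene, the zinc finger list had 7 hosts. Chromatin and transcription regulators, which include Ccnl2, had 7 hosts among 69 genes. The lists of O-GlcNAc cycling and of long non-coding hosts of small RNAs had none, among 2 and 4 genes.

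Genes of cell types other than the cardiomyocyte also hosted members. Sparc-205 held 74 of 197 annotated reads in replicate 1 and 35 of 129 in replicate 2. Egfl7-213, a single exon in a gene of endothelial cells, held 22 of 48 and 10 of 23, and Fabp4-202, also a single exon, 9 of 63 and 9 of 36. Of all reads of the gene these were 20.9% for Sparc-205, 29.1% for Egfl7-213 and 3.12% for Fabp4-202. The matrix list had 2 hosts among 26 genes, the endothelial and mural list 3 among 26, and the immune list 2 among 17, with Tapbp-204 at 0 and 4 reads. In bulk tissue, fewer cells of a type and less RNA per cell cannot be told apart.

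Members in genes of splicing were of all 4 structures. The lists of SR proteins, their kinases, hnRNP proteins, other splicing regulators and the core spliceosome held 30 members, of which 8 (26.7%) had a whole intron between junctions, against 11.7% of all members. These 8 held 143 reads, 31.4% of the reads on members of that structure, and 109 of the 143 were on Rsrp1-204. By list they were 5 of 11 members in SR proteins and related factors, both members in their kinases, 1 of 10 in the other regulators, 0 of 6 in the core spliceosome and 0 of 1 in the hnRNP list, and the chromatin and transcription list had 4 of 11. The others were Luc7l-204 (6 and 7 reads), Clk1-212 (5 and 1), Srpk1-212 (3 and 0), and Arglu1-204, Srsf5-212, Rbm5-219 and Srrm1-207, named for this count after their values were seen. Core spliceosome genes had 6 hosts among 52 genes and hnRNP proteins 1 among 20 (Hnrnpr-211, 2 and 0 reads). The splicing regulators led by Rbm38-203 (7 and 4 reads), Cirbp-204 (4 and 4) and Rbm24-203 (3 and 4) had 7 hosts among 17 genes. mRNA export and decay genes had 4 hosts among 36, led by Fip1l1-207 with 4 and 3 reads. Members in the splicing lists were few and had few reads, and the difference in structure was not tested.

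Whether a member was seen in both libraries went with its number of reads, as for the other models. Both libraries had reads on 514 members (76.4%), with 96 in replicate 1 alone and 63 in replicate 2 alone. With 2 reads in all, 47.8% of members and 50.6% of other annotated models were in both libraries. With 3 reads it was 75.7% and 73.2%, with 4 reads 92.2% and 88.3%, with 5 to 9 reads 96.3% and 96.8%, and with 10 or more 100% and 99.9%.

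As a group the members took 1.59% (1.56 to 1.62, Wilson 95%) of annotated reads in replicate 1 and 1.32% (1.29 to 1.36) in replicate 2, a mean of 1.46 ± 0.185% (SD, n = 2). The share in replicate 1 was 1.20 times that in replicate 2 (1.16 to 1.23; two-sided Fisher's exact test on reads, p = 2.23e-32). The difference rested on 2 members: without Cox4i1-204 the shares were 0.787% and 0.721% (1.09 times, p = 3.53e-05, Fisher's exact test), and without Cox4i1-204 and Fxyd1-213 they were 0.588% and 0.572% (1.03 times, 0.980 to 1.08, p = 0.254). Of the 4 structures, members with part of an intron were the ones that passed this test, with 1.34% in replicate 1 and 1.08% in replicate 2 (1.24 times, p = 1.29e-38, Fisher's exact test), and without the same 2 members these were 0.346% and 0.329% (1.05 times, 0.987 to 1.12). For members with an intron between junctions the ratio was 0.920 (0.762 to 1.11, p = 0.372), for single-exon members 1.04 (0.931 to 1.17, p = 0.477) and for members with a whole intron in an end exon 0.984 (0.876 to 1.11, p = 0.791), by the same exact test.

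Single members were tested with the two-sided exact conditional binomial test over all 8215 annotated models with at least 10 reads, with Benjamini-Hochberg adjustment. With a call set at 2-fold or more and an adjusted p below 0.05, 0 of 126 members were called, where 0.158% of all models were. At an unadjusted p below 0.05 there were 10 members (7.94%), against 8.02% of all models, and edgeR's exact test with a preset variation of 0.1 or 0.2 also called 0. Without the fold minimum 2 members were called, where 0.889% of all models were, and both were higher in replicate 1, where 0.596% of all models were called higher and 0.292% lower. Cox4i1-204 was 1.32 times as high in replicate 1 as in replicate 2 (exact 95% interval 1.27 to 1.38, adjusted p = 3.64e-33), and Fxyd1-213 1.33 times (1.22 to 1.46, adjusted p = 6.27e-08). The median log2 ratio of replicate 1 over replicate 2 was 0.04 over the 126 members and -0.04 over all models tested.

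Of the other members with most reads, Rpl5-204 had a ratio of 1.03 (0.883 to 1.19). Sparc-205 had one of 1.73 (1.15 to 2.67) and Rsrp1-204 one of 0.622 (0.416 to 0.923), at adjusted p = 0.294 and 0.430 in the exact binomial test. Within the gene, the share of annotated reads was compared between libraries for 108 members with Fisher's exact test. Cox4i1-204 was the 1 member called, with 68.0% in replicate 1 and 63.1% in replicate 2 (adjusted p = 5.54e-05), where 0.0678% of all 2951 models tested were called. At an unadjusted p below 0.05 there were 10 members (9.26%), against 3.35% of all models. Fxyd1-213, at 77.7% and 73.0%, had an adjusted p of 1 in the same Fisher's exact test.

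**Figure D5:**
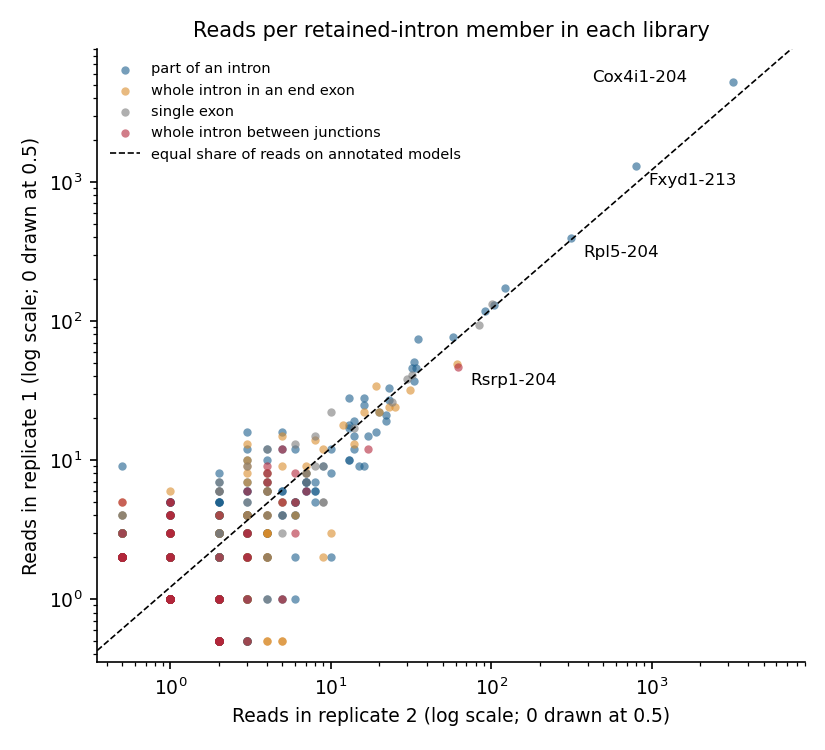
Reads of each retained-intron member in replicate 1 (vertical) and replicate 2 (horizontal), on log scales with 0 drawn at 0.5, coloured by structure. The dashed line marks an equal share of the annotated reads of each library; Cox4i1-204 (5218 and 3232 reads) and Fxyd1-213 (1300 and 799) lay above it and Rsrp1-204 (47 and 62) below it.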

How the data were processed

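Total RNA from heart was sequenced as long reads in 2 libraries of 1 group. The deposited values were whole, unnormalized counts of reads per transcript model, 1 library each, made by the authors against mm10 and GENCODE M21, with TALON identifiers per the file headers. Exon numbers, lengths and coordinates were also the authors' and were the same in GENCODE M21 for all 19884 annotated models with a read. Aligner, tool versions and filters are not given in the sources used here. Left out were the 48 annotated spike-in models. The members, lists and alternatives were chosen with earlier results of these data known.

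Introns, chains and shared ends (within 50 bases) were read from GENCODE M21, and retained introns from its transcripts. Structure, chain and crossing were computed with Python 3.11.15 and pandas 2.3.3, tests with SciPy 1.17.1, and near-identical copies (95% identity over 80% of the length) with minimap2 2.31-r1302. Shares had Wilson 95% intervals, and log2 ratios used 0.5 reads added. Since 1 library against 1 leaves nothing to estimate variation from, edgeR's quasi-likelihood test could not be run and exact tests on counts were used, with edgeR 4.0.16 and DESeq2 1.42.0 as alternatives for scaling and preset variation. The tests were tried on simulated counts. DESeq2 size factors shift every log2 ratio of replicate 1 over replicate 2 by 0.12, to a median of 0.07 over all models.

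Members were named by a rule: the 15 with most reads, the 12 with the highest share where the gene had 20 annotated reads in each library, every called member, and up to 3 with most reads per list. Other names, the members with intron sequences among them, were chosen after their values were seen. A member that the rule names is not reported here.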

Additional observations from a re-analysis of the deposited data

How the results depend on the processing

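No paired analysis was possible because the 2 replicates belong to 1 group and no groups were compared. The difference between libraries in the members' share of annotated reads (1.46% on average) kept its direction and its side of the threshold under the 6 other denominators, read minimums and model sets planned. Of the 3 alternatives added after seeing the data, 2 lost the threshold: 0.580% without the 2 members with most reads (p = 0.254) and 0.146% over members with a chain of their own or 1 exon (p = 0.923, Fisher's exact test). The third, members with an intron between junctions, turned the direction at 0.0385% on average (0.0369% in replicate 1 and 0.0402% in replicate 2, p = 0.372, Fisher's exact test). The single libraries gave 1.32 to 1.59%.

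The number of members was 1577 with no read minimum, 262 at 5 reads and 126 at 10, by construction, and 378 to 441 with 2 reads in 1 library alone. The median share of the gene (3.88%) was 2.92% over all reads of the gene, 2.50% in genes with at least 50 annotated reads and 6.45% with no minimum. It was 3.27 to 3.57% in single libraries, where members without reads count as 0. Members called between libraries numbered 0, and 2 without the fold minimum. Depth limited most members: 547 of 673 had fewer than 10 reads and were outside the test between libraries as reported. With a minimum of 5 reads or none, 0 members were called as well. Members with so few reads can hardly reach the adjusted threshold in this exact test, so that result does not tell whether they differed.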
